A study of Xenopus laevis with 96 samples.

Results

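The transcripts described here were those of epidermal and border ectoderm genes in whole embryos of the frog Xenopus laevis. The members were all genes whose symbols place them among the keratins (krt), the tfap2, grhl, dlx, msx, ventx and gata transcription factors (msx1 and msx2, dlx1 to dlx6, gata1 to gata3), tp63 or the claudins (cldn). They were chosen by name among genes with deposited log2 values. The study had removed genes below a minimum expression from those values, so this pool depended on measured levels. The rule found 50 genes among the 16322 with deposited log2 values, out of 31430 genes in the count table. They were 12 krt, 8 dlx, 7 cldn, 6 grhl, 5 ventx, 4 msx, 4 gata and 3 tfap2 genes, and tp63.S. X. laevis carries many genes as a pair of homeologs on its L and S subgenomes, and each copy was counted as a gene of its own.

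Wildtype embryos were held for 2 h in 10 nM all-trans retinoic acid (RA), in 50 μM DEAB (4-diethylaminobenzaldehyde, an inhibitor of the enzymes that oxidise retinaldehyde to RA) or in 0.5% ethanol, and control embryos were collected beside them. RA and DEAB stocks were made in DMSO, and the sources used here do not say whether control embryos received it. Embryos were collected at the end of the pulse (0 h, stage 10.25, early gastrula) and at 1.5, 3 and 4.5 h after washing. A library held 5 to 10 pooled embryos, and each clutch (A to F), the eggs of 1 female, gave 1 library per treatment and time, 96 in all. The staging was not the same in every clutch, since clutches B and C were at stage 12 at 4.5 h and clutches A, D, E and F at stage 12.5. At 3 h clutches B and C were at stage 11.5 and the others at stage 12. At 1.5 h clutch A was at stage 11.5 and the others at stage 11. The study kept clutches in which its own qPCR readouts had moved with RA and DEAB, so these 6 clutches were chosen for their response.

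During gastrulation the ectoderm is divided by a gradient of bone morphogenetic protein (BMP) signalling. Cells with much BMP signal become epidermis, cells shielded from it become neural plate, and the border between them gives rise to neural crest and placodes. The tfap2, dlx, msx, gata and ventx factors respond to BMP on the non-neural side and at the border. tp63 and the grainyhead-like (grhl) factors drive epidermal differentiation, keratins build the filaments of the epidermal cell and claudins seal its tight junctions. RA is a vitamin A derivative best known in the gastrula for patterning the neural plate and the mesoderm along the head to tail axis.

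Libraries held 5528562 to 15869722 counts (median 11691899.5), and CPM (counts per 1000000 counts in the library) below were adjusted by TMM (trimmed mean of M-values) over all 96 libraries. All 6 homeologs of RA-induced genes on a list of readouts (cyp26a1, dhrs3, hoxb1 and hoxd1) were higher with RA than in controls over the time course, and 5 of 6 were lower with DEAB (edgeR quasi-likelihood test, adjusted p under 0.05), although cyp26a1 was among the readouts used to choose the clutches. Of all genes tested, 3.61% were called higher with RA and 4.97% lower with DEAB. Markers of the other tissues of a whole embryo were present in every treatment. None of 12 neural plate, 11 mesoderm and 11 endoderm genes was at 0 in all libraries of a treatment. These lists held only genes with deposited log2 values, already cleared of low expression, so that outcome was largely set beforehand. In these bulk libraries, fewer cells of a type and less RNA per cell cannot be told apart.

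The control libraries show how the members behave in an undisturbed gastrula. Nearly the whole group rose. Between 4.5 h and 0 h, 47 of 50 members were called, 43 higher and 4 lower, against 82.9% of the 20295 genes tested called in either direction, 39.6% higher and 43.2% lower. The median change of the members was 1.80 on the log2 scale, and that of all genes tested was -0.08. Lists of markers of other tissues held many rising genes too. Of 11 endoderm genes, 9 were called higher and 0 lower (median 1.43). Of 12 neural plate genes, 9 were higher and 1 lower (median 0.86). Of 11 mesoderm genes, 6 were higher and 4 lower (median 1.26). A rise was therefore not particular to the members. In the fit of RA, DEAB and control libraries of 0 h, 48 of the 50 passed the count filter. A member that passes it only at later times can only rise. The rise was spread over the course. At 1.5 h against 0 h, 35 members were higher and 1 lower (48.3% of all genes called), at 3 h against 1.5 h, 35 were higher and 3 lower (50.1%), and at 4.5 h against 3 h, 24 were higher and 5 lower (46.9%). Of all genes tested, 23.8%, 23.8% and 21.9% were called higher in these 3 steps and 24.5%, 26.3% and 25% lower. All these calls come from edgeR's quasi-likelihood test, in which clutch was a block, with p adjusted by Benjamini-Hochberg over all genes tested and a threshold of 0.05.

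**Figure D1:**
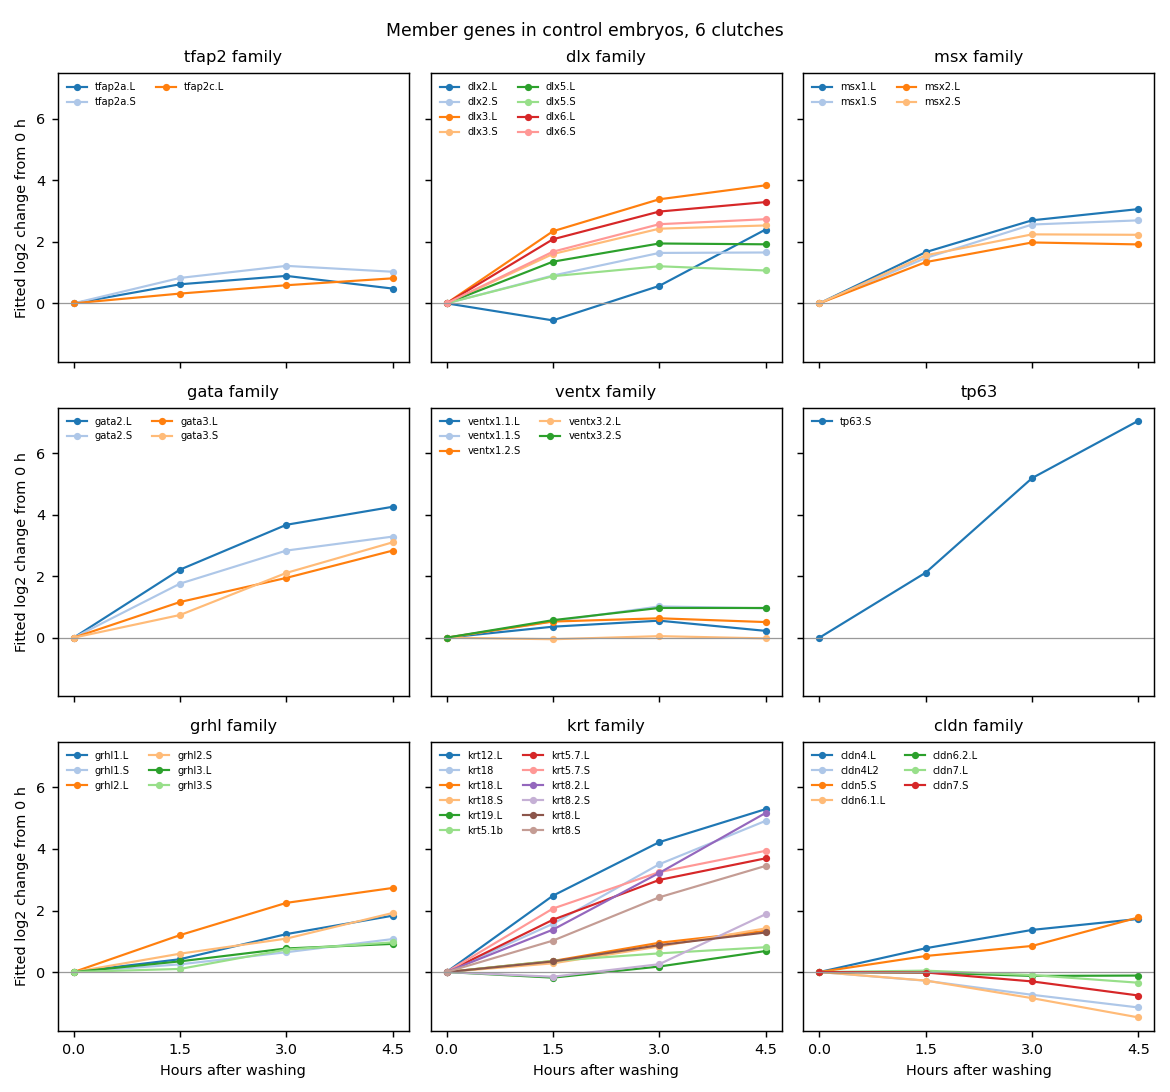
Fitted log2 change from 0 h (y axis) against hours after washing (x axis) in control embryos, 1 line per member and 1 panel per family, from 6 clutches. tp63.S climbs highest, to 7.05 at 4.5 h, the msx and most dlx lines level off after 3 h, and the claudin panel holds lines that go up and lines that go down.

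The steepest rise belonged to tp63.S, the p63 transcription factor that maintains the basal layer of stratified epithelia. Its median in control embryos was 0.963 CPM at 0 h, 3.88 CPM at 1.5 h, 37.6 CPM at 3 h and 148 CPM at 4.5 h. The lowest 4.5 h library, at 33.8 CPM, lay above the highest 0 h library, at 2.63 CPM. The fitted change was 7.05 ± 0.39 (log2, SE, 6 clutches, adjusted p = 5.2e-13), and tp63.S was called in each of the 3 steps.

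Among the early ectodermal regulators, all 3 tfap2 genes rose, by less than most other members. tfap2a acts in both epidermis and neural crest. tfap2a.L had medians of 132, 189, 228 and 158 CPM at 0, 1.5, 3 and 4.5 h, and it was called lower at 4.5 h than at 3 h (-0.41 ± 0.12, adjusted p = 0.0067). tfap2a.S changed by 1.03 ± 0.11 between 4.5 h and 0 h, and its last step was -0.19 ± 0.11 (adjusted p = 0.17). tfap2c.L, a relative expressed at the neural border, was called higher at every step and ended 0.81 ± 0.06 above its 0 h level.

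The 8 dlx homeobox genes all rose, with a median of 2.47. dlx3.L, a BMP-induced regulator of epidermis, led them. It had 28.0, 37.5 and 55.6 CPM at 4.5 h (lowest, median and highest clutch), against 0.909, 2.15 and 6.26 CPM at 0 h. The groups did not overlap, and the change was 3.84 ± 0.23. dlx6.L changed by 3.29 ± 0.34 and dlx3.S by 2.53 ± 0.18, while dlx5.S, at 1.07 ± 0.13, moved least. Of the 8, 7 were called higher in each of the first 2 steps, but only dlx2.L in the last. The 4 msx genes, repressors that mark the neural border, all rose over 4.5 h as well (median 2.46, msx1.L 3.06 ± 0.28), and none was called in the last step, where edgeR gave changes of -0.06 to 0.36.

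The gata factors are zinc-finger regulators of ventral ectoderm and of blood, and all 4 rose. gata2.L had medians of 27.0, 199, 531 and 740 CPM at 0, 1.5, 3 and 4.5 h, a change of 4.26 ± 0.27, and gata2.S changed by 3.29 ± 0.23. gata3.L and gata3.S changed by 2.83 ± 0.26 and 3.10 ± 0.26. Of the 4, 3 were still called higher in the last step, with gata2.S at 0.45 ± 0.20 (adjusted p = 0.074).

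The ventx genes, homeobox repressors that keep ventral cells from taking dorsal fates downstream of BMP, had small changes (median 0.51). Of 5, 3 rose over the course (ventx1.1.S 0.96 ± 0.18, ventx3.2.S 0.97 ± 0.18, ventx1.2.S 0.51 ± 0.19). ventx1.1.L, at 0.22 ± 0.15, and ventx3.2.L, at -0.02 ± 0.16, did not pass. The sign of the ventx3.2.L change turned under DESeq2, RLE scaling and limma and without clutch A, C, D or E, and that of ventx1.1.L turned with clutches A, D, E and F only.

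The grainyhead-like factors all rose (6 of 6, median 1.45). grhl2.L, at 2.73 ± 0.20, moved most. grhl1.L, a direct regulator of keratin genes in Xenopus, had medians of 88.5 CPM at 0 h, 132 CPM at 1.5 h, 252 CPM at 3 h and 361 CPM at 4.5 h, and it was called higher in each step. grhl3.L and grhl3.S, which act in the superficial epidermis, changed by 0.91 ± 0.07 and 0.96 ± 0.09.

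All 12 keratins rose, with a median of 2.66, and 11 of 12 were still called higher in the last step. In the fit of RA, DEAB and control libraries of 0 h, only 10 of the 12 passed the count filter. A keratin that enters the control fit through later libraries alone can only rise, so its rise is no test. krt12.L had medians of 9.67, 82.9, 239 and 532 CPM over the course (5.29 ± 0.35), and its lowest 4.5 h value of 271 CPM was far above its highest 0 h value of 28.6 CPM. krt8.2.L changed by 5.17 ± 0.42, but its highest 0 h library had only 0.401 CPM, so it entered this fit through later libraries. krt18, a keratin 18 entry whose symbol carries no L or S label, changed by 4.91 ± 0.31. Its lowest library held 0 counts. No keratin besides krt18 and krt8.2.L went below 4, so the rise of krt18 is taken to come under the same limit. krt5.7.L and krt5.7.S, larval epidermal keratins, changed by 3.70 ± 0.24 and 3.94 ± 0.21, and krt5.7.S reached a median of 2006 CPM. Of the simple-epithelial keratins 8 and 18, krt8.L changed by 1.29 ± 0.07, krt18.L by 1.34 ± 0.11 and krt18.S by 1.42 ± 0.17, below the family median, and krt8.S by 3.45 ± 0.17, above it. Keratin genes are close relatives, and reads that fit several copies may have been split between them.

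Claudins were the exception. Of 7, 2 rose and 4 fell. cldn4.L rose at every step and ended 1.73 ± 0.07 above 0 h, and cldn5.S, near 1 CPM at 0 h, changed by 1.77 ± 0.35. cldn6.1.L fell to 96.4, 108 and 186 CPM at 4.5 h (lowest, median and highest clutch), against 298, 327 and 434 CPM at 0 h, and the groups did not overlap. Its change was -1.48 ± 0.12 (adjusted p = 4.0e-10). cldn7.L changed by -0.35 ± 0.08. cldn6.2.L did not pass, with a change of -0.11 ± 0.08 (adjusted p = 0.17).

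The L and S copies of a gene did not always move together. For 18 genes both copies were members, and the log2 ratio of L to S was followed from 0 h to 4.5 h within each control clutch. It is given as a description, with no test, because homeologs share most of their sequence and the split of reads between them was made before deposit. In 9 of the 18 genes the ratio moved the same way in 6 of 6 clutches. Homeolog pairs outside the members were not read, so whether this count is particular to the members cannot be told. The largest shift among the 9 was in krt8. Its ratio was 0.61 ± 0.16 at 4.5 h and 2.78 ± 0.42 at 0 h (SD, n = 6), a change of -2.17 ± 0.43, as krt8.S changed by 3.45 ± 0.17 and krt8.L by 1.29 ± 0.07. The ratio changed by 1.27 ± 0.35 for dlx3, 0.99 ± 0.48 for gata2, 0.84 ± 0.36 for dlx5, 0.77 ± 0.35 for grhl1 and 0.44 ± 0.22 for msx1, toward the L copy. It changed by -1.02 ± 0.15 for ventx3.2, -0.78 ± 0.40 for ventx1.1 and -0.56 ± 0.26 for tfap2a, toward the S copy.

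**Figure D2:**
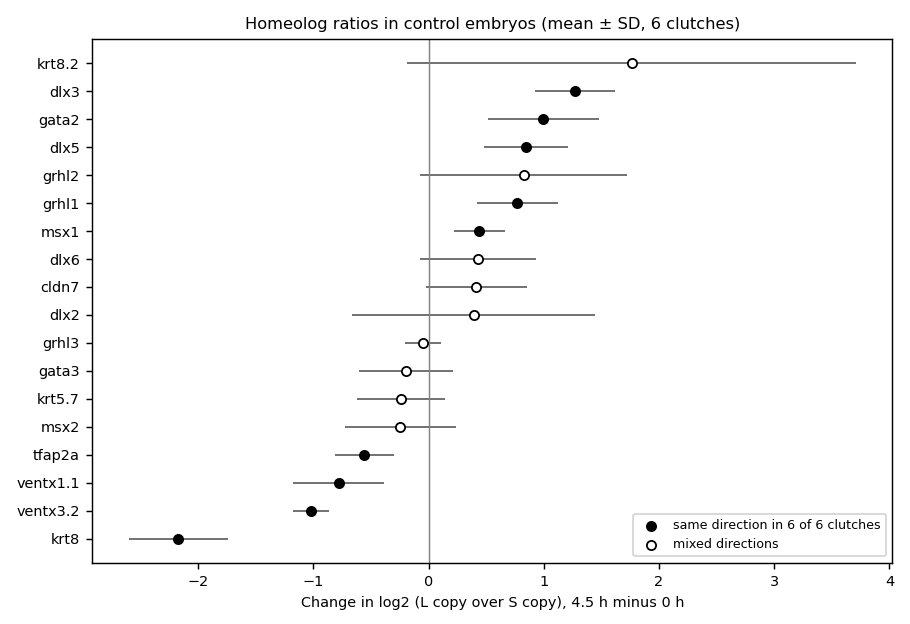
Change in the log2 ratio of the L copy to the S copy in control embryos, 4.5 h minus 0 h (x axis, mean ± SD of 6 clutches), for the 18 genes with both copies among the members (y axis). Filled points mark genes whose ratio moved the same way in 6 of 6 clutches, with krt8 farthest left at -2.17.

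The first question put to the treated embryos was whether added RA changed these genes. At the end of the pulse, 2 members were called in RA embryos against controls, both lower, of 48 tested (0.537% of the 19376 genes tested were called, 0.227% lower). krt5.7.L had 22.3, 43.9 and 165 CPM in RA embryos (lowest, median and highest clutch), against 36.9, 109 and 197 CPM in controls. The groups overlapped, but within clutches RA was lower in 6 of 6, and the change was -0.90 ± 0.16 (adjusted p = 0.019). ventx3.2.S changed by -0.51 ± 0.09 (adjusted p = 0.020, lower in 5 of 6). The median of the members at 0 h was -0.14, against -0.001 for all genes. Without clutch D, E or F no member was called, without A 1, without B 5 and without C 7, while DESeq2 called 5, an unfiltered edgeR fit 13 and limma on the deposited log2 values 0. Counts under other settings, here and below, come without the share of all genes called in the same fit. They do not tell whether the members or all genes moved.

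After washing, no member was called in RA embryos against controls by edgeR at 1.5, 3 or 4.5 h. At an unadjusted p under 0.05 there were 11, 8 and 6 members. Unadjusted counts, here and below, come without the share of all genes at that cut, so they are no measure of a member response. DESeq2 called 1 member at 1.5 h and none at 3 and 4.5 h, limma none, and an unfiltered edgeR fit 3, 3 and 0 at these times. Over all genes, 0.655% were called at 1.5 h, 0.16% at 3 h and 0% at 4.5 h.

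Averaged over the 4 time points, small decreases became countable. In RA embryos 11 members were lower than in controls and none was higher, against 7.66% of the 22092 genes called, 3.61% higher and 4.05% lower. The median of the members was -0.07, against 0.003 for all genes. krt5.7.L fell by 0.45 ± 0.07 (adjusted p = 8.1e-06, lower in 6 of 6 clutches), and krt5.7.S changed by -0.26 ± 0.08 and krt8.S by -0.20 ± 0.04. Of the regulators, msx1.L changed by -0.36 ± 0.07 (adjusted p = 6.7e-04, lower in 6 of 6), grhl2.L by -0.27 ± 0.06 and dlx3.S by -0.23 ± 0.06, each lower in 6 of 6 clutches. ventx3.2.S and ventx3.2.L changed by -0.26 ± 0.06 and -0.23 ± 0.05, msx2.L by -0.19 ± 0.06, grhl3.S by -0.13 ± 0.04 and tfap2a.S by -0.11 ± 0.03. No gata or cldn gene was called. The 39 members that did not pass lay between -0.29 (krt18) and 0.18 (gata3.S).

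The averages treat each clutch at each time as a block, so that a clutch counts at all 4 times. Reduced to 1 value per clutch (limma with clutch as block, an analysis added after the data were seen), 0 of the 50 members were called in RA embryos against controls, with krt5.7.L at -0.45 and an adjusted p of 0.13. Leaving out clutch E or F left 6 calls each.

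DEAB was given to lower RA synthesis. At 0 h, 5 members were called in DEAB embryos against controls, all lower, of 48 tested (2.37% of all genes, 1.21% lower). grhl2.L had 1.59, 2.94 and 5.02 CPM in DEAB embryos (lowest, median and highest clutch), against 1.69, 4.91 and 10.2 CPM in controls. The groups overlapped, 5 of 6 clutches were lower, and the change was -0.71 ± 0.17 (adjusted p = 0.044). dlx6.S changed by -0.58 ± 0.15, ventx3.2.S by -0.41 ± 0.09, krt8.S by -0.24 ± 0.04 and krt18.S by -0.22 ± 0.05. These calls depended on single clutches: there were none without clutch A, D, E or F, 7 without B and 22 without C, and limma called none. The share of all genes called in these fits is not given, so the 22 cannot be read as particular to the members.

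At 1.5 h edgeR called 0 members in DEAB embryos against controls, as for all genes (0%), with 9 at an unadjusted p under 0.05, 0 by DESeq2 and limma and 1 in an unfiltered fit. krt12.L was the single member called later. At 3 h (0.0361% of all genes called, 0.0206% lower) it had 83.3, 155 and 273 CPM in DEAB embryos, against 122, 239 and 349 CPM in controls (lowest, median and highest clutch). The groups overlapped, all 6 clutches were lower with DEAB, and the change was -0.53 ± 0.09 (adjusted p = 0.041). At 4.5 h (0.263%, 0.253% lower) the change was -0.36 ± 0.07 (adjusted p = 0.031), again lower in 6 of 6. The number of members called at 3 h was 0 without clutch B, D, E or F, 2 without A and 4 without C, and at 4.5 h it was 0 without B, D, E or F and 3 without C. DESeq2 called 4 members at 3 h and 2 at 4.5 h, and limma 0 at both.

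Over the 4 time points together, 17 members were lower in DEAB embryos than in controls and none was higher (8.73% of all genes called, 3.76% higher and 4.97% lower). The median of the members was -0.10, against 0.002 for all genes. Keratins made up 7 of the 17. krt12.L changed by -0.60 ± 0.09 (adjusted p = 9.7e-05) and krt8.L by -0.14 ± 0.02 (adjusted p = 3.4e-04), both lower in 6 of 6 clutches, krt18 by -0.51 ± 0.13 and krt5.7.S by -0.38 ± 0.08. gata3.S changed by -0.39 ± 0.08 (adjusted p = 0.0016, lower in 6 of 6), gata2.L by -0.18 ± 0.04 and gata2.S by -0.14 ± 0.04. Of the border factors, dlx6.L changed by -0.45 ± 0.10, msx1.S by -0.26 ± 0.07, msx1.L by -0.25 ± 0.07 and dlx3.L by -0.25 ± 0.08. grhl2.L changed by -0.33 ± 0.06 and grhl1.L by -0.11 ± 0.03, and cldn4.L, at -0.13 ± 0.04, was the single claudin. The 33 members that did not pass lay between -0.47 (tp63.S) and 0.04 (cldn7.S). tp63.S had the largest rise in controls, and its DEAB difference of -0.47 ± 0.16 (adjusted p = 0.055) was lower in 5 of 6 clutches, from -1.22 in clutch F to 0.38 in clutch C. With RA it was -0.25 ± 0.15 (adjusted p = 0.35).

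With 1 value per clutch no member was called in DEAB embryos against controls, krt12.L standing at -0.63 (adjusted p = 0.28). The count over 4 time points was 10 without clutch D, 6 without E and 4 without F.

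**Figure D3:**
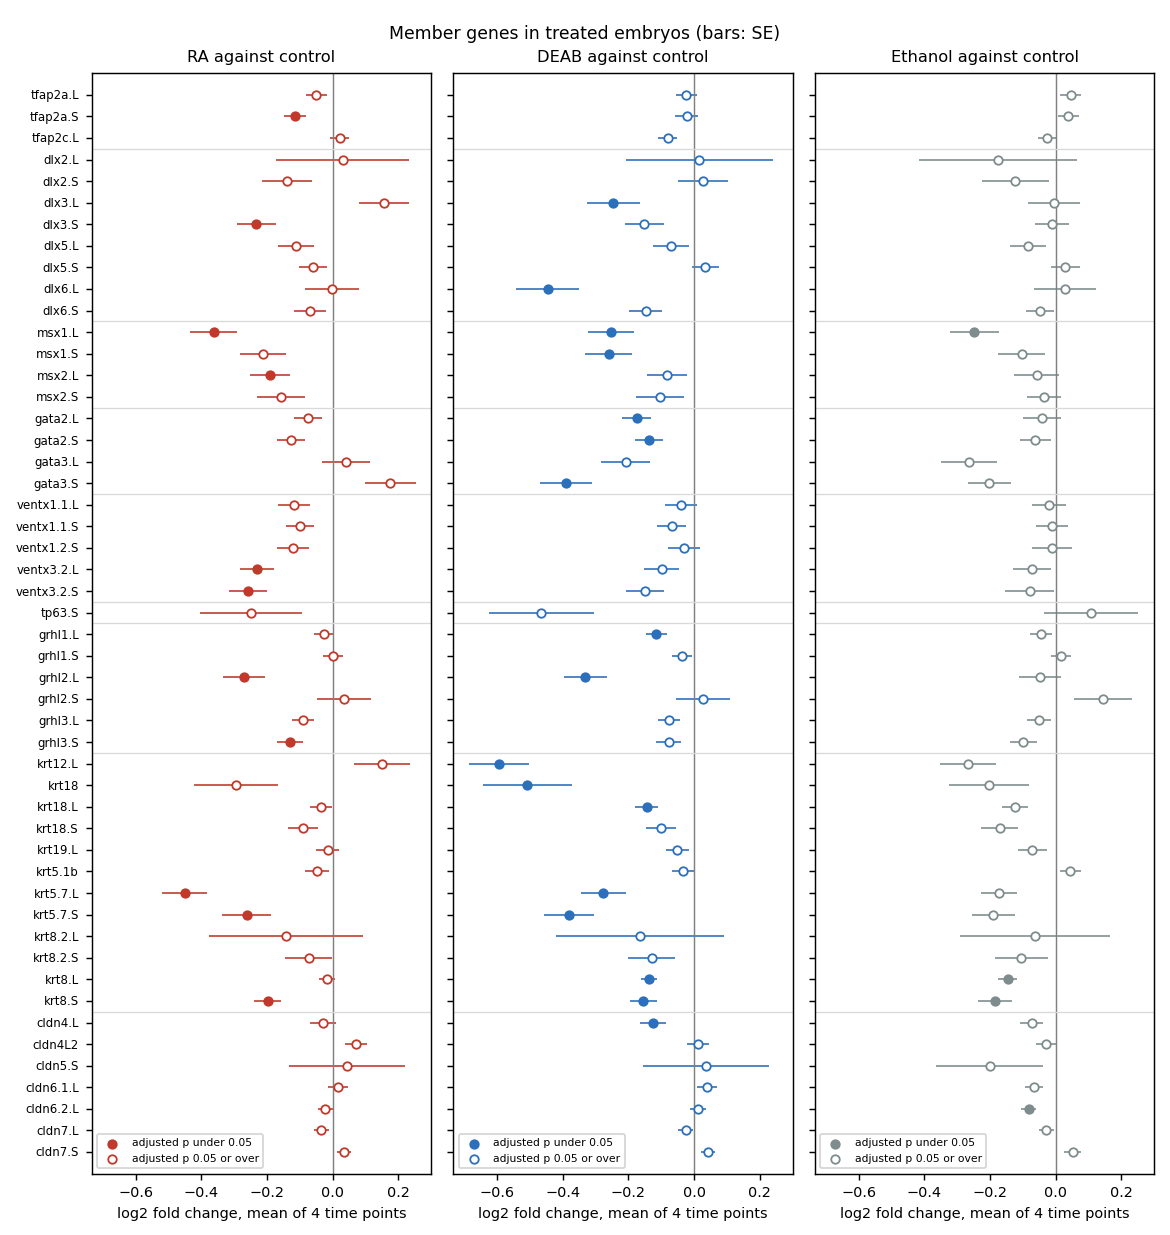
Log2 fold change averaged over the 4 time points (x axis, bars are SE) of each of the 50 members (y axis, grouped by family) in RA, DEAB and ethanol embryos against the same controls. Filled points passed an adjusted p of 0.05. In all 3 panels every filled point lies left of 0.

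The control libraries were shared by the RA, DEAB and ethanol comparisons, and a lower value in all of them is not repeated evidence. Genes that rise during gastrulation were read as a class. It was defined after the data were seen, as genes that rose at least 2-fold between 4.5 h and 0 h in the ethanol libraries, which enter neither comparison, and it left out the members. Its 5227 genes had a median of -0.07 in RA embryos and -0.09 in DEAB embryos against controls, with 10.7% and 13.6% of them called lower. With RA 558 of them were called lower and 172 higher, and with DEAB 709 lower and 6 higher. Genes that fell at least 2-fold had medians of 0.07 and 0.08. Of the members, 35 met the rule for rising genes. At 0 h the rising class had medians of -0.11 with RA and -0.14 with DEAB, beside member medians of -0.14 and -0.21. Its part in the member results was not tested.

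Markers of other tissues were read in the same fits. With RA, 1 neural plate gene was called higher and 1 lower of 12, 1 mesoderm gene higher and 4 lower of 11, and 1 endoderm gene higher and 2 lower of 11. Of all genes, 3.61% were called higher and 4.05% lower with RA, averaged over the 4 time points. With DEAB, 1 neural plate gene was lower and none higher, 3 mesoderm genes were higher and 2 lower, and 2 endoderm genes were lower and none higher. The shares of all genes with DEAB were 3.76% higher and 4.97% lower. The summed level of the neural plate list, averaged over times, was 1014 to 1417 CPM per clutch with RA, 1005 to 1403 CPM with DEAB and 1048 to 1403 CPM in controls. For mesoderm it was 848 to 1230 CPM with RA, 900 to 1302 CPM with DEAB and 802 to 1317 CPM in controls. For endoderm it was 699 to 1830 CPM with RA, 749 to 1752 CPM with DEAB and 648 to 1927 CPM in controls. The part of these lists in the results was not tested.

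RA was given to raise and DEAB to lower RA signalling, and the direct comparison of RA with DEAB embryos takes its difference from no control library, although control libraries were in the same fits and entered the estimate of spread. Averaged over the 4 time points, 7 members were higher with RA than with DEAB and none was lower, against 3.58% of 22092 genes called, 2.63% higher and 0.951% lower. The median of the members was 0.01, and that of all genes was -0.002. For the rising class the median was also 0.01, and of its 5227 genes 335 were called higher with RA and 51 lower. The part of that class in the member calls was not tested.

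krt12.L differed most. At 0 h it had 4.29, 18.7 and 36.9 CPM in RA embryos, against 1.29, 4.09 and 17.4 CPM in DEAB embryos and 4.61, 9.67 and 28.6 CPM in controls (lowest, median and highest clutch). The 3 groups overlapped. The RA against DEAB change at 0 h was 1.43 ± 0.29 (adjusted p = 0.031, higher in 5 of 6 clutches, 0.464% of all genes called and 0.439% higher), but it was lost without clutch A, D, E or F.

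At 1.5 h krt12.L had 47.1, 97.2 and 108 CPM with RA, against 25.1, 48.01 and 74.7 CPM with DEAB, a change of 0.87 ± 0.15 (adjusted p = 0.0025, higher in 6 of 6). No other member was called at that time (1.04% of all genes, 0.982% higher), and leaving out clutch B, C or D raised the count to 2, DESeq2 to 3 and an unfiltered fit to 7. At 3 h the change of krt12.L was 0.47 ± 0.09 (adjusted p = 0.0066, 6 of 6). At 4.5 h the medians were 475 CPM with RA and 398 CPM with DEAB, and the change of 0.22 ± 0.07 did not pass (adjusted p = 0.26). Averaged, krt12.L was 0.75 ± 0.09 higher with RA (adjusted p = 1.4e-08), from 0.34 in clutch B to 1.66 in clutch F. With 1 value per clutch it was 0.79 (adjusted p = 0.026).

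Against controls, averaged krt12.L was 0.15 ± 0.09 with RA, which did not pass (adjusted p = 0.30), and -0.60 ± 0.09 with DEAB, which did. In ethanol embryos it was -0.27 ± 0.08 (adjusted p = 0.063).

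**Figure D4:**
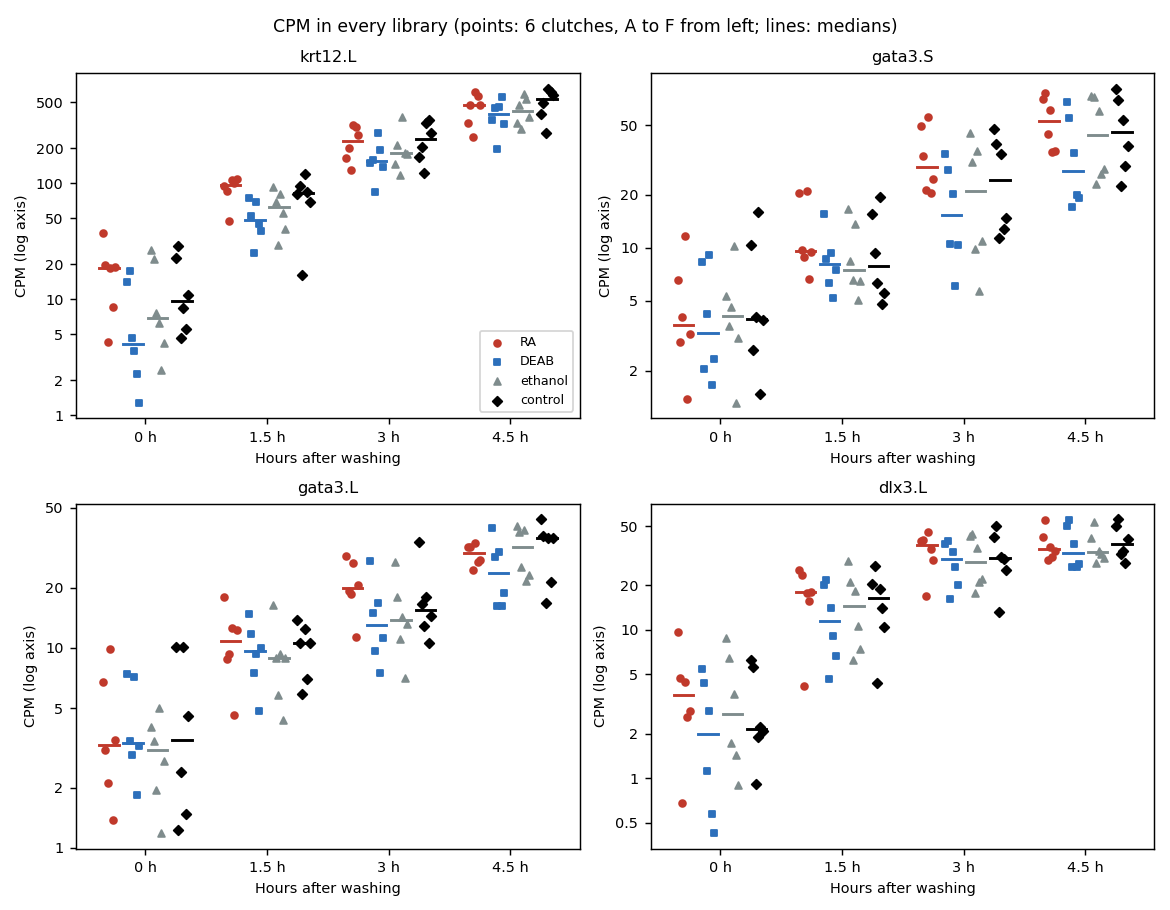
CPM on a log axis of krt12.L, gata3.S, gata3.L and dlx3.L in every library, by hours after washing, with RA, DEAB, ethanol and control embryos from left to right at each time (points are the 6 clutches, lines the medians). The krt12.L median at 1.5 h is 97.2 CPM with RA and 48.01 CPM with DEAB, and in all 4 panels the rise with time is larger than the distance between treatments.

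gata3 was the other gene with a difference at single times. At 3 h (0.969% of all genes called, 0.887% higher) gata3.S had 20.4, 29.0 and 55.3 CPM in RA embryos, against 6.09, 15.4 and 34.4 CPM in DEAB embryos and 11.4, 24.4 and 47.3 CPM in controls (lowest, median and highest clutch). The groups overlapped, but RA was above DEAB in 6 of 6 clutches, and the change was 0.99 ± 0.14 (adjusted p = 0.0011). gata3.L changed by 0.57 ± 0.11 at 3 h (adjusted p = 0.0094, 6 of 6).

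At 4.5 h (0.815% of all genes called, 0.724% higher) gata3.S had 35.3, 52.6 and 76.1 CPM with RA, against 17.2, 27.3 and 67.9 CPM with DEAB. The change was 0.70 ± 0.12 (adjusted p = 0.0064, 6 of 6), it was lost without clutch E, and limma called no member at 4.5 h. At 0 h and 1.5 h gata3.S stood at 0.09 ± 0.14 and 0.48 ± 0.13, neither of which passed. Whether the difference grew with time was not tested for RA against DEAB. Averaged, gata3.S was 0.57 ± 0.08 higher with RA (adjusted p = 5.8e-07, 6 of 6), and 0.59 with 1 value per clutch (adjusted p = 0.012). gata3.L was 0.25 ± 0.07 higher (adjusted p = 0.046, 4 of 6).

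The other 4 members called on average were dlx3.L at 0.40 ± 0.08 (adjusted p = 3.5e-04, higher in 5 of 6 clutches), dlx6.L at 0.44 ± 0.10 (5 of 6), krt8.L at 0.12 ± 0.02 (6 of 6) and tfap2c.L at 0.10 ± 0.03 (4 of 6). The S copy of dlx3 stood at -0.08 ± 0.06 and that of dlx6 at 0.08 ± 0.05, and neither passed. With 1 value per clutch krt12.L and gata3.S were the 2 members called. Without clutch D the count over 4 time points was 4.

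**Figure D5:**
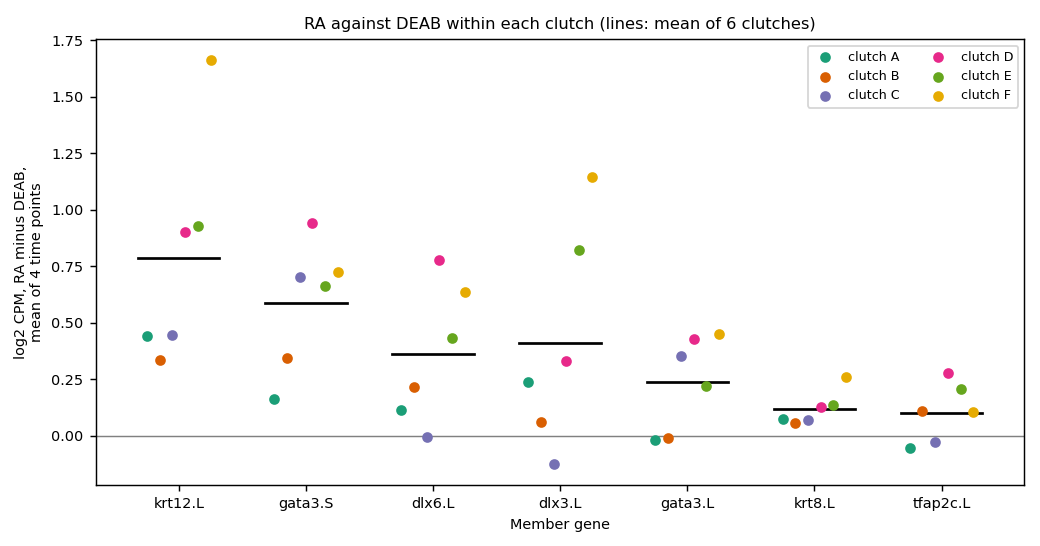
Difference in log2 CPM between RA and DEAB embryos of the same clutch, averaged over the 4 time points (y axis), for the 7 members called (x axis). Points are clutches A to F and lines their mean; krt12.L, gata3.S and krt8.L lie above 0 in all 6 clutches, and dlx3.L reaches from -0.13 to 1.14.

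Ethanol embryos were the third treated group. Of the RA-induced readouts at 0 h, 2 of 5 tested were called lower than in controls and none higher (median -0.58), and averaged over the time points 1 of 6 was called, also lower. Of the members at 0 h, 3 of 47 tested were called, all lower than in controls (2.89% of all genes, 1.7% lower): cldn6.1.L at -0.14 ± 0.03, krt8.L at -0.17 ± 0.04 and krt18.S at -0.20 ± 0.05, each lower in 6 of 6 clutches. The count was 0 without clutch A, D, E or F and 10 without B. At 1.5, 3 and 4.5 h edgeR and DESeq2 called 0 members (0.065%, 0% and 0.00531% of all genes in edgeR), with 3, 9 and 13 at an unadjusted p under 0.05 and 4, 2 and 4 in an unfiltered fit. Averaged, 4 members were lower (4.8% of all genes called, 2.02% higher and 2.78% lower): krt8.L at -0.15 ± 0.03, krt8.S at -0.18 ± 0.05, msx1.L at -0.25 ± 0.07 and cldn6.2.L at -0.08 ± 0.02. With 1 value per clutch there were 0, without clutch A, E or F 1 each, without D 2 and without B 7.

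A change of response over the recovery was tested next. The test of whether the RA effect differed between the time points called 0 of 50 members with edgeR and 0 with DESeq2 (9 at an unadjusted p under 0.05), and the same test for DEAB also called 0 with both (10 unadjusted), against 0.0272% of all genes for either. The smallest adjusted p for DEAB was 0.15, for ventx3.2.S. Without clutch C, 2 members were called for DEAB. A test that did not pass does not show that the responses were alike at the 4 times.

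Without the clutch block the treatment calls of members were lost. The share of all genes called without it is not given, so this loss cannot be read as particular to the members. In an edgeR fit with no replicate block, no member was called in any comparison of RA, DEAB or ethanol embryos with controls or with each other, at any time or on average, while the control course still gave 45 calls between 4.5 h and 0 h and 22, 17 and 8 in its 3 steps.

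The neighbours of these genes in the ectodermal pathway were read from lists chosen by name. Averaged tests of listed genes, here, above and below, count each clutch at all 4 times. They were not read with 1 value per clutch, under which most averaged member calls were lost. Of 19 BMP ligands, receptors, SMADs and feedback genes, 14 rose and 2 fell between 4.5 h and 0 h in controls (median 0.40). Of all genes tested, 39.6% rose and 43.2% fell. In RA embryos 5 were lower than controls on average and none higher (4.05% of all genes were called lower), and in DEAB embryos none was called on average (4.97%), with 1 higher and 1 lower at 0 h. Between RA and DEAB embryos, 2 were lower with RA on average and none higher (0.951%). szl.L, a secreted BMP feedback antagonist, changed by -0.39 with RA (adjusted p = 3.9e-04), bambi.L by -0.12 and id3.S by -0.09. The ligand bmp4.L stood at -0.11 (adjusted p = 0.07) and was 1.38 higher at 4.5 h than at 0 h in controls. Of 15 border and neural crest genes, 14 rose in controls (median 2.84, pax3.S 7.27 and twist1.S 6.66). In RA embryos 1 was lower than controls on average, and in DEAB embryos 2, beside the same shares of all genes. With DEAB sox9.L changed by -0.31 (adjusted p = 0.032) and eya1.L by -0.21 (adjusted p = 0.014).

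Of 12 other epidermal genes, 11 rose in controls (median 1.63), with itln1.L, a product of the secretory epidermis, at 9.25 and ppl.S, a desmosomal plakin, at 9.02. In RA embryos 1 was higher than controls on average and 1 lower, against 3.61% and 4.05% of all genes. In DEAB embryos 5 were lower and none higher, against 4.97% and 3.76%. cdh1.S (E-cadherin) was 0.34 higher with RA than with DEAB (adjusted p = 5.8e-08), esrp1.S, an epithelial splicing factor, 0.22 (adjusted p = 2.1e-05) and esrp1.L 0.11 (adjusted p = 0.013). Of all genes, 2.63% were called higher with RA than with DEAB on average and 0.951% lower. These 3 are examples and do not stand for the list. At 3 h, 10 of the 12 lay higher with RA than with DEAB and 2 lower, with 2 called, both higher. At 0 h, 7 of 9 tested lay higher and 2 lower, with 0 called. At 1.5 h, 7 of 12 lay higher and 5 lower, with 1 called, higher. At 4.5 h, 10 lay higher and 2 lower, with 0 called. Relative to controls, 2 of the 12 lay higher with RA on average and 10 lower, from -0.41 to 0.13. Against controls cdh1.S stood at -0.24 with DEAB (adjusted p = 5.7e-04) and 0.11 with RA (adjusted p = 0.12). foxi1.S, a regulator of ionocytes, changed by -0.33 with DEAB (adjusted p = 0.0048) and stood at -0.09 with RA (adjusted p = 0.52).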

How the data were processed

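The authors used STAR to align paired reads to X. laevis genome 9.1 and deposited raw counts per gene for 96 libraries. They also deposited log2 values (normalized expression) for the RA, DEAB and control libraries, which here supplied the gene symbols and the limma alternative. The submitters' processing notes name bcl2fastq, STAR, FastQC and DESeq2. Whether reads were counted by strand is not given in the sources used here.

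Deposited counts were filtered with filterByExpr, scaled by TMM and tested with edgeR 4.0.16 (quasi-likelihood, Benjamini-Hochberg over all genes tested, threshold 0.05, R 4.3.3). Fits held 24 control libraries (time course), 18 libraries per time point (RA, DEAB, control), 12 per time point (ethanol, control), and 72 or 48 libraries for averages over the 4 time points. Clutch was a block, and in averages clutch by time point (24 blocks), since each clutch came from 1 female. Libraries of 1 clutch and time deviated together in all 144 pairs (correlation 0.49 to 0.87). SE is the size of the log2 change divided by the square root of F. CPM were TMM-scaled, with a prior count of 2 for log2 CPM within clutches. The same steps were tested on simulated data with 200 changed genes. The simulated counts held no differences between clutches, so they could not check the clutch blocks. None of 240 replicate pairs held identical values.

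The study's own test was an analysis of variance by time and treatment, and edgeR was used here because the files hold counts. Members, gene lists and tests were chosen with earlier results of these data known, and the rising class and the fit of 1 value per clutch after seeing the values. Named are members called in a treatment comparison (the 5 smallest adjusted p of each), the 2 most abundant and 2 most changed of each family, a set of known regulators, and their homeologs. dlx2.L was named after its values were seen. One gene of the readout list is not reported here. Alternatives were DESeq2 1.42.0, RLE scaling, no filter, no replicate block and limma 3.58.1 on the deposited log2 values (no ethanol values are used there). Others were all 24 libraries of a time point, clutches A, D, E and F only (control course), and leaving out each clutch. Clutches A, D, E and F had the same stages except at 1.5 h, when A was at stage 11.5 and D, E and F at stage 11. Of the 50 symbols, 40 matched the RefSeq gene table, from which no coordinates were taken because its build differs.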

Additional observations from a re-analysis of the deposited data

Results flagged for a closer look

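The averaged difference of msx2.L between RA embryos and controls was 0.19 on the log2 scale in clutch B, while the other 5 clutches lay between -0.35 and -0.20. The gap to the nearest clutch was 0.73 of the whole range, above Dixon's critical value for 6 values. It was 1 of 57 called differences looked at in this way, and chance marks about 1 in 20. grhl1.L was higher with RA than in controls in all 6 clutches at 1.5 h (median 0.11) and lower in all 6 at 4.5 h (median -0.08). The edgeR test of RA by time did not pass for it after adjustment (adjusted p = 0.63, unadjusted p = 0.0081), nor did either time point alone. Such a turn in all 6 clutches was looked for in all 50 members. The search covered RA, DEAB and ethanol embryos against controls and RA against DEAB, over all time points. Only grhl1.L had it, and how often chance gives such a turn was not tested.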

How the results depend on the processing

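The paired analysis was the main one. Counts below are of members only, without the share of all genes called in the same fit. With no replicate block the members called were 0 in every comparison between treatments, and 22, 17 and 8 in the control steps to 1.5, 3 and 4.5 h. With no filter on low counts, RA against controls gave 13, 3 and 3 calls at 0, 1.5 and 3 h, DEAB against controls 14, 1, 10 and 4 at 0, 1.5, 3 and 4.5 h, RA against DEAB 2, 7 and 3 at 0, 1.5 and 4.5 h, and ethanol 10, 4, 2 and 4 at the 4 times and 9 averaged. DESeq2 gave 5 and 1 (RA, 0 and 1.5 h), 4 and 2 (DEAB, 3 and 4.5 h), 3 (RA against DEAB, 1.5 h) and 2 (ethanol, averaged). limma on the deposited log2 values gave 0 for RA at 0 h, for DEAB at 0, 3 and 4.5 h, and for RA against DEAB at 0 and 4.5 h. RLE scaling gave 2 for averaged ethanol, and all 24 libraries in 1 fit gave 5 for ethanol at 0 h. With 1 value per clutch the averages gave 0 (RA), 0 (DEAB), 2 (RA against DEAB) and 0 (ethanol) calls.

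Leaving out each clutch in turn gave 31 to 39, 33 to 38 and 25 to 29 calls in the control steps, and 46 to 48 for 4.5 h against 0 h. It gave 0 to 7 and 0 to 1 for RA at 0 and 1.5 h, 0 to 22, 0 to 4 and 0 to 3 for DEAB at 0, 3 and 4.5 h, and 0 to 1, 1 to 2, 2 to 3 and 0 to 1 for RA against DEAB at the 4 times. It gave 0 to 10 for ethanol at 0 h, and averaged 6 to 12 (RA), 4 to 24 (DEAB), 4 to 10 (RA against DEAB) and 1 to 7 (ethanol). DEAB by time gave 0 to 2. Each of these fits held fewer libraries, and the causes of the spread were not tested.

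Of 660 checks of single genes called between treatments, 417 kept their call, 243 lost it and 0 changed sign. Only calls of the main fit were checked, and on the same libraries or most of them. A kept sign was thus largely set beforehand. Settings that gave a gene no adjusted p were left out. The control change of ventx3.2.L (-0.0231) was 0.0565 with DESeq2, 0.0503 with RLE scaling and 0.1362 with limma, and -0.224 to 0.159 without single clutches, and that of ventx1.1.L was -0.0132 with clutches A, D, E and F only. Members with few counts, such as dlx2.L, krt8.2.L and cldn5.S, had standard errors that would hide small treatment effects.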
